A study of Mus musculus with 6 samples.

Results

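The genes described here make cholesterol, sense it, take it up, move it inside the cell, store it and send it out. The 33 genes were taken by symbol from GENCODE M21 among the 52550 gene identifiers listed in the count tables, and each was found. They comprise 18 enzymes of synthesis, 4 genes that control the sterol-regulated transcription factor SREBP-2, 4 genes of uptake and intracellular transport, 5 genes of export and of the liver X receptors, and 2 genes of storage and turnover. All but Nr1h3 passed the filter on low counts, so 32 of the 33 were tested.

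The libraries hold polyA RNA of the cortex of C57BL6/J pups at postnatal day 2, with 1 hemisphere per library. The knockout pups were Slc7a5fl/fl; Emx1Cre+ (n = 3) and the control pups Slc7a5fl/fl; Emx1Cre- (n = 3), so both groups carry the floxed alleles and Cre is present in the knockouts alone. Slc7a5 encodes LAT1, a carrier of leucine and other large neutral amino acids. Cre under Emx1 control acts in the progenitors of cortical excitatory neurons and astrocytes, and microglia, blood vessels and most interneurons keep the gene. Since no control carries Cre, its own effects and the effects of the deletion cannot be told apart. Each genotype has a library A, a library B and a library C, named so in the titles.

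Counts assigned to genes were 9524407 to 10372582 per knockout library and 8249436 to 10077443 per control library. Slc7a5 itself stood at 15.6, 9.37 and 11.4 CPM (gene counts relative to the library's scaled total) in knockouts A, B and C, against 20.2, 40.7 and 26.1 CPM in controls A, B and C. The groups did not overlap, and the log2 change was -1.25 ± 0.28 (SE, edgeR adjusted p = 0.400, and 0.421 with the letter as a block). Excitatory neuron markers summed to 2860 to 3220 CPM in knockouts and 2961 to 3313 CPM in controls, the highest of the cell type lists, and no listed marker of any cell type was at 0. Only 5 of 14913 tested genes passed an adjusted p under 0.05 in edgeR's quasi-likelihood test (0.0335%), and 126 passed with the letter as a block (0.845%).

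Cholesterol of the brain is made in place, since plasma lipoproteins do not cross the blood-brain barrier. When membranes of the endoplasmic reticulum are rich in sterol, SCAP and the INSIG proteins hold SREBP-2 there; when sterol is scarce, SREBP-2 is cleaved and switches on the enzymes of synthesis. The liver X receptors act in the other direction: oxysterols bind them, and they switch on exporters such as ABCA1 and ABCG1 and the lipoprotein component APOE. In the newborn cortex, neurons and glia both make cholesterol, and glia pass part of it to neurons on APOE particles.

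The 18 enzymes of synthesis had a median log2 change of -0.22 in the knockout cortex, and none of them passed the adjusted test. Abcg1 was 1.90 times as high in knockouts as in controls and was the 1 member that passed a test over all genes, with the letter as a block. The levels of the SREBP-2 gene and of its partners Scap, Insig1 and Insig2 differed by less than their errors. No member passed in edgeR's fit without the block, nor with DESeq2. In edgeR's fit without the block, 4 members were lower at an unadjusted p under 0.05, a call that 3.81% of all tested genes met. A further 2 were higher in the same fit, which 3.19% met.

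**Figure D1:**
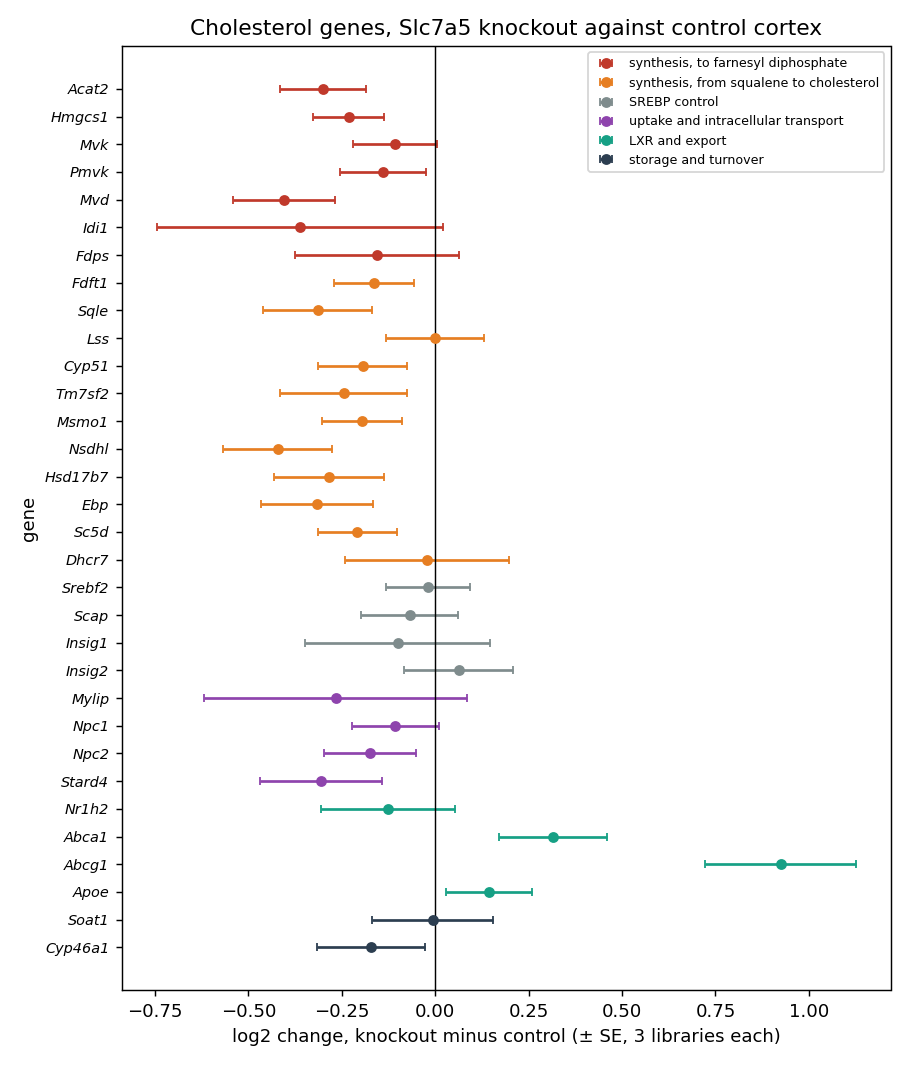
Log2 change of the 32 tested genes, knockout minus control, with its SE (3 libraries per genotype), coloured by role. The enzymes of synthesis lie at or left of 0, with Lss at -0.00089 (0.00078 with size factors of the DESeq2 kind), and Abcg1 lies farthest to the right at 0.92.

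The 18 enzymes had a median log2 change of -0.22, against 0.0011 over all genes tested, and every one of them was below 0, although Lss (-0.00089) turned to 0.00078 with size factors of the DESeq2 kind. Of all genes tested, 49.8% were below 0. In 4 enzymes, Acat2, Hmgcs1, Mvd and Nsdhl, each knockout library was lower than each control library, which held for 6.28% of all genes. With the letter as a block, 10 enzymes were lower at an unadjusted p under 0.05, against 6.46% of all genes. No enzyme passed after adjustment over all genes in either fit, and the smallest blocked adjusted p was 0.0811, for Nsdhl.

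The early steps lead from acetyl-CoA to farnesyl diphosphate, the precursor that cholesterol shares with prenyl groups and dolichol. Acat2, the cytosolic thiolase that joins acetyl-CoA units, had 319, 254 and 325 CPM in knockouts A, B and C, against 363, 400 and 342 CPM in controls. Its groups did not overlap, and knockout B was the lowest and control B the highest library (log2 change -0.30 ± 0.12, SE). Hmgcs1, the next synthase, had 1072, 967 and 982 CPM in knockouts and 1198, 1191 and 1159 CPM in controls, also without overlap (-0.23 ± 0.095). It was the most abundant transcript of the 33 per length, at 219 FPKM in knockouts and 257 FPKM in controls (CPM per kilobase of annotated exon, means of 3).

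Mvd, which decarboxylates mevalonate diphosphate (ENSMUSG00000006517, GRCm38 chromosome 8 from 122433601 to 122443422, minus strand), had 130, 106 and 110 CPM in knockouts A, B and C. The controls had 136, 189 and 133 CPM. The highest knockout was just below the lowest control, and control B stood well above the other controls (log2 change -0.40 ± 0.14, adjusted p = 0.536, blocked adjusted p = 0.121, edgeR). The kinases Mvk and Pmvk, which add the phosphates before that step, changed by -0.11 ± 0.11 and -0.14 ± 0.11, and their groups overlapped. Fdps, the farnesyl diphosphate synthase, had 49.5, 55.7 and 31.5 CPM in knockouts and 53.7, 59.0 and 39.9 CPM in controls. Both libraries of letter C were low for Fdps, and the knockout was below the control within each letter. Idi1, the isomerase before Fdps, was listed with 1.85, 1.39 and 1.97 CPM in knockouts and 1.21, 3.35 and 2.24 CPM in controls. At that depth its log2 change of -0.36 ± 0.38 shows no direction, and reads that map to several places are not in these counts.

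From squalene onward the steps belong to sterols alone. Nsdhl, a dehydrogenase that helps remove the methyl groups at carbon 4 of the ring (ENSMUSG00000031349, chromosome X from 72918557 to 72958514, plus strand), had 37.9, 35.0 and 28.2 CPM in knockouts A, B and C, against 38.2, 54.0 and 43.4 CPM in controls. The letter A libraries were nearly equal and the gap came from letters B and C. Its log2 change of -0.42 ± 0.15 (adjusted p = 0.541, blocked 0.0811) was the lowest of the enzymes. Sqle, the epoxidase that opens the sterol branch, had 158, 147 and 110 CPM in knockouts and 164, 205 and 148 CPM in controls, with overlap between the groups (-0.31 ± 0.15). Fdft1, which makes squalene, changed by -0.16 ± 0.11 and was lower in the knockout within each letter.

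Cyp51, the demethylase that acts on lanosterol, had 315, 236 and 244 CPM in knockouts and 304, 324 and 282 CPM in controls. Knockout A lay above controls A and C, and the other knockouts lay below every control (-0.19 ± 0.12). Msmo1, the oxidase that works with Nsdhl, changed by -0.20 ± 0.11, and Hsd17b7, the reductase of the same step, by -0.28 ± 0.15. Ebp and Sc5d, an isomerase and a desaturase of late sterols, changed by -0.32 ± 0.15 and -0.21 ± 0.11, and the reductase Tm7sf2 by -0.25 ± 0.17. The groups overlapped in each of these. Lss, the cyclase that closes the ring, had 23.8, 28.9 and 23.5 CPM in knockouts and 25.1, 26.5 and 24.8 CPM in controls. Dhcr7, a reductase of the last step, had 14.5, 19.5 and 9.35 CPM in knockouts and 13.4, 16.5 and 14.4 CPM in controls. Knockouts of both genes lay on both sides of their controls, and the log2 changes were -0.00089 ± 0.13 for Lss and -0.022 ± 0.22 for Dhcr7.

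**Figure D2:**
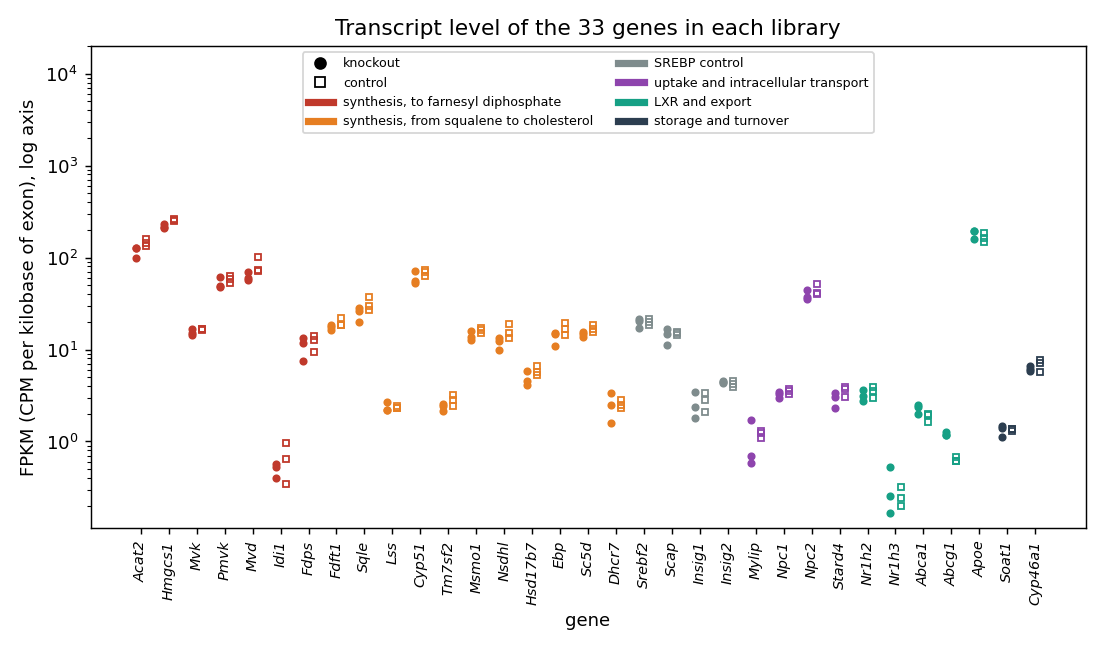
Level of each of the 33 genes in every library, in FPKM (CPM per kilobase of annotated exon) on a log axis, filled circles for knockouts and open squares for controls, coloured by role. Hmgcs1, Apoe and Acat2 have the highest mean FPKM in both genotypes, and Nr1h3 the lowest.

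The libraries did not contribute equally. Control B was the highest of the 6 libraries in 13 of the 18 enzymes, knockout C was the lowest in 9 and knockout B in 8. Within letter A the median difference of the enzymes was -0.059 and 12 of 18 were lower in the knockout. Within letter B it was -0.38 with 16 of 18 lower, and within letter C -0.19 with 17 of 18 lower. In 10 enzymes the knockout was lower within every letter, which held for 16.8% of all genes. The median over the enzymes was -0.15 without control B, -0.14 without both letter B libraries, and at its lowest -0.29 without control C.

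A whole-library measure moved in the same order. Reads outside annotated exons were 27.4, 27.9 and 27.8% of mapped reads in knockouts A, B and C, against 26.5, 22.5 and 23.0% in controls. The knockout minus control difference was 0.920 percentage points for letter A, 5.43 for letter B and 4.78 for letter C. Oligodendrocytes that make myelin are known for high cholesterol synthesis. Of the 8 listed markers of the oligodendrocyte lineage, 7 were lower in the knockouts, none of them called. The summed level of the 8 was 270, 251 and 265 CPM in knockouts A, B and C, against 282, 289 and 334 CPM in controls, without overlap. This gap was largest in letter C, while the median difference of the enzymes was largest in letter B. Radial glia and progenitor markers went the other way in 8 of 8. Their sums were 404, 414 and 379 CPM in knockouts and 332, 373 and 347 CPM in controls, also without overlap. Interneuron markers were higher in 8 of 9, and 1 of the 9 was called with the letter as a block. Their sums were 1905, 1678 and 1549 CPM in knockouts A, B and C, against 1615, 1499.8 and 1542 CPM in controls, with overlap. Excitatory neuron markers were lower in 6 of 9 and higher in 3, and 3 of the 9 were called with the block. The called markers were not tallied by direction, and 0.845% of all tested genes were called with the block. Astrocyte markers overlapped, at 674 to 773 CPM in knockouts and 675 to 774 CPM in controls. The part of these measures in the enzyme values was not tested, and in bulk tissue fewer cells of a type and less RNA per cell cannot be told apart.

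**Figure D3:**
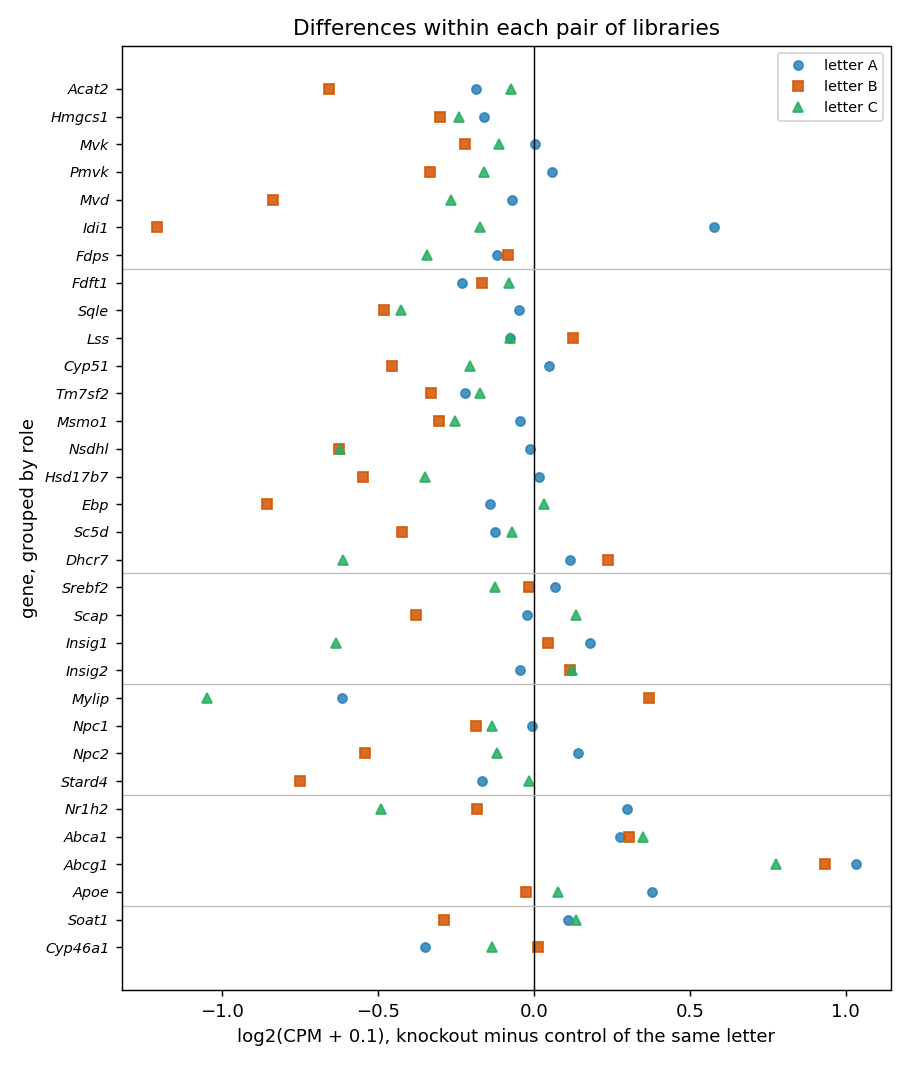
Difference of log2(CPM + 0.1), knockout minus control of the same letter, for the 32 tested genes, in rows grouped by role. Letter B (squares) lies farthest left for most enzymes and letter A (circles) often nearest 0; the 3 values of Abcg1 and of Abca1 all lie to the right of 0.

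The promoters of the enzymes were read for the letters that SREBP-2 and its partner factors bind. RefSeq promoter windows on GRCm38.p6, from 250 bases before to 50 after a transcription start, were at hand for 27 of the 33 genes, among them 15 of the 18 enzymes; the others are Abcg1, Fdft1, Fdps, Npc1, Sqle and Stard4. The box of the factor NF-Y, CCAAT on either strand, was present in 14 of these 15 enzymes, all but Acat2. It was present in 7 of the 12 other members and in 42.7% of the 10684 tested genes that had a window. The Sp1 box, GGGCGG, was in 14 of 15 enzymes, in 9 of the 12 other members and in 69.3% of tested genes. A sterol response element core, TCACNCCAC, was found in Hmgcs1 alone among the 27 members, and in 1.38% of tested genes. Its stricter form TCACCCCAC, which is contained in the core, was the form found in Hmgcs1 and in 0.674% of tested genes.

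The upstream parts of 5 promoters are shown, those of every member with a window whose genotypes did not overlap: Acat2, Hmgcs1, Mvd and Nsdhl had lower levels in each knockout, and Abca1 higher ones. Each run is 5′ to 3′ in the direction of the gene, 250 bases long and ends at the base before RefSeq's transcription start. Capitals mark the NF-Y box (CCAAT, or ATTGG where it lies on the other strand) and the sterol response element core. They lie at chr17:12960726-12960975 (minus strand) for Acat2, chr13:119690101-119690350 (plus strand) for Hmgcs1, chr8:122443423-122443672 (minus strand) for Mvd, chrX:72918271-72918520 (plus strand) for Nsdhl and chr4:53159896-53160145 (minus strand) for Abca1.
Acat2: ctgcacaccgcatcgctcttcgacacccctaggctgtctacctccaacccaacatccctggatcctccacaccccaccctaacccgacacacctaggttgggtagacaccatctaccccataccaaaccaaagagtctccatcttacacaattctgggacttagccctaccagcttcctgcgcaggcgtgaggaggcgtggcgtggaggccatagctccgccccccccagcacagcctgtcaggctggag
Hmgcs1: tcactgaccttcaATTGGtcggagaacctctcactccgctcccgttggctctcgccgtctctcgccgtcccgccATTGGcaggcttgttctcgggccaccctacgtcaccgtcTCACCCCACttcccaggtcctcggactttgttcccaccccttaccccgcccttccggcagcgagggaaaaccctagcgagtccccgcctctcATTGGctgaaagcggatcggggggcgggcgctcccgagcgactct
Mvd: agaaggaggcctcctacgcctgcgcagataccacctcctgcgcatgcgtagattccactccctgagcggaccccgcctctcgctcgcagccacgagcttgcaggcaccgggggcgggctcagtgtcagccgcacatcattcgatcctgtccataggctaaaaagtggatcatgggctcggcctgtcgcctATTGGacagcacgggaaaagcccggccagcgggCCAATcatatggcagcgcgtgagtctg
Nsdhl: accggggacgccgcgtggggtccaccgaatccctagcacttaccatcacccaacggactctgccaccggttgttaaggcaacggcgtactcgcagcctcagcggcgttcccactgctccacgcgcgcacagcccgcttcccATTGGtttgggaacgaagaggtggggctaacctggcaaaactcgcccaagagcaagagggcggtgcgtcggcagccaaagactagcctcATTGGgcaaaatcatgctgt
Abca1: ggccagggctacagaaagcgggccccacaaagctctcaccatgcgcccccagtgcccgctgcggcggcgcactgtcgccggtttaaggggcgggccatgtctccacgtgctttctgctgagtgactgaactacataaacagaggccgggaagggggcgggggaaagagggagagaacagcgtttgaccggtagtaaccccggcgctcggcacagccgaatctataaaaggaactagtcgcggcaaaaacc

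In Hmgcs1 the sterol response element began 137 bases before the start, between NF-Y boxes that began 176 and 45 bases before it. Mvd held 2 NF-Y boxes in this stretch, at 60 and 27 bases before the start, and Nsdhl held 2, at 109 and 20. Acat2, which was lower in each knockout, and Abca1, which was higher, both held none. Abca1 was the only shown gene that was higher, so this set cannot relate the box to direction. The ATF4 element TGATGNAA was in the windows of Idi1, Insig2 and Apoe, and in 2.59% of tested genes. These are exact matches of letters in short windows. Elements elsewhere were not searched, and sites in the windows whose letters differ from the patterns were not counted.

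**Figure D4:**
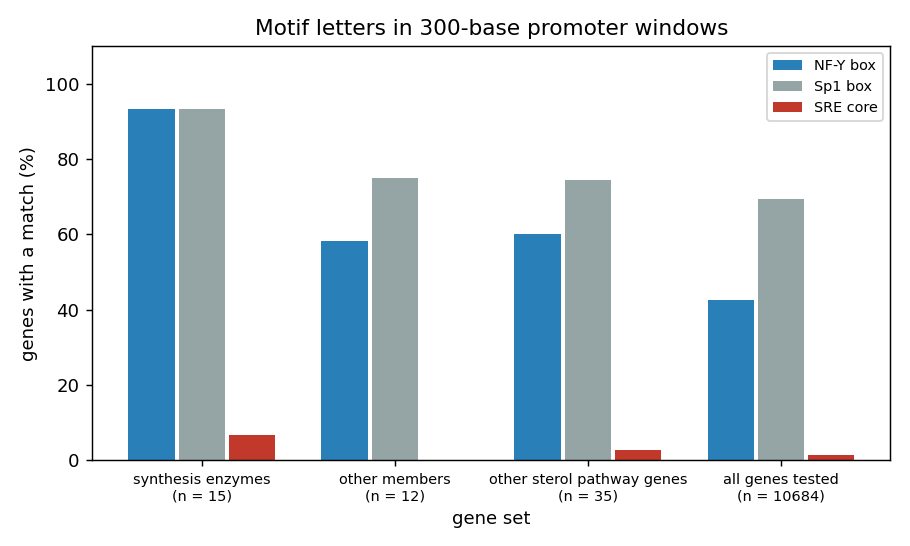
Share of genes whose 300-base promoter window holds the NF-Y box, the Sp1 box or the sterol response element core, for the enzymes, the other members, the other sterol pathway genes and all tested genes with a window. The NF-Y box is in 93.3% of enzyme promoters and 42.7% of tested genes.

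The 4 genes that control SREBP-2 had values on both sides of 0. Srebf2, the gene of the factor itself, had 148, 154 and 122 CPM in knockouts A, B and C, against 142, 156 and 133 CPM in controls (log2 change -0.019 ± 0.11). Scap, its escort from the endoplasmic reticulum, had 110, 82.9 and 126 CPM in knockouts and 112, 108 and 115 CPM in controls (-0.068 ± 0.13). Insig1 and Insig2, which retain it there, changed by -0.10 ± 0.25 and 0.063 ± 0.15. The median of the 4 was -0.044, and it took either sign when libraries were left out, from -0.072 to 0.077. Their errors were 0.11 to 0.25, and no test set the SREBP-2 genes against the enzymes.

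Among genes of uptake and transport, the 4 values were below 0 and none passed. Stard4, which carries cholesterol through the cytosol, had 18.6, 13.1 and 16.9 CPM in knockouts and 20.9, 22.1 and 17.1 CPM in controls (-0.31 ± 0.16). Each knockout was below the control of its letter, by most in letter B. Npc1 and Npc2, which pass cholesterol out of the lysosome, changed by -0.11 ± 0.12 and -0.17 ± 0.12, and Npc2 reached 0.021 without both letter B libraries. Mylip, a ubiquitin ligase that is a target of liver X receptors and degrades lipoprotein receptors, had 2.26, 5.47 and 1.87 CPM in knockouts and 3.52, 4.22 and 3.97 CPM in controls (-0.27 ± 0.35). The knockouts of Mylip lay on both sides of the controls. The median of the 4 was -0.22, and it was -0.078 without both letter B libraries.

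Of the export genes, Abcg1 stood out by its size of change. Abcg1, which moves sterols across membranes and onto lipoprotein particles (ENSMUSG00000024030, chromosome 17 from 31057675 to 31117988, plus strand), had 9.16, 8.63 and 8.62 CPM in knockouts A, B and C. The controls had 4.43, 4.47 and 4.99 CPM. Every knockout stood far above every control, and the spread within a genotype was small, with means of 8.80 ± 0.309 and 4.63 ± 0.314 CPM (SD, n = 3 each). These levels rest on 83 to 93 reads per knockout library and 36 to 49 per control library. The log2 change was 0.92 ± 0.20, and Abcg1 ranked 23rd of 14913 genes by unadjusted p (edgeR adjusted p = 0.179). By the unadjusted p of the blocked fit it ranked 61st. With the letter as a block it passed (adjusted p = 0.0191), and it did so too without the filter on low counts (0.0380), but not with DESeq2 (0.0964). Dropping the filter left its log2 change at 0.92, while the genes called in all rose from 5 to 71. The adjusted p of Abcg1 ran from 0.214 to 0.777 with 1 library left out, while the log2 change stayed between 0.89 and 0.98.

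Abca1, which loads cholesterol onto apolipoproteins (ENSMUSG00000015243, chromosome 4 from 53030787 to 53159895, minus strand), had 20.4, 24.7 and 25.98 CPM in knockouts A, B and C, against 16.8, 19.97 and 20.4 CPM in controls. The groups did not overlap, but knockout A was nearly level with control C. The log2 change was 0.31 ± 0.14 (adjusted p = 0.708, blocked 0.314), and within letters it was 0.28, 0.30 and 0.35. Abcg1 and Abca1, 2 of 32 tested members (6.25%), did not overlap in the higher direction, against 5.89% of all genes. The same 2 were higher in the knockout within every letter, against 16.2% of genes. With the letter as a block both had an unadjusted p under 0.05 in the higher direction, against 5.44% of genes. These shares are near or below those of all genes, so the counts say nothing about the members in the higher direction.

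Apoe, the main lipoprotein component of the brain, had 413, 343 and 416 CPM in knockouts and 318, 349 and 395 CPM in controls (0.14 ± 0.11). Its groups overlapped, and letter B showed no difference. Nr1h2, the liver X receptor of most brain cells, had 12.1, 10.5 and 9.25 CPM in knockouts and 9.86, 11.9 and 13.0 CPM in controls (-0.13 ± 0.18). Nr1h3, the other receptor, was counted 13, 7 and 4 times in knockouts A, B and C and 8, 4 and 6 times in controls, too few to test. The storage enzyme Soat1, which esterifies cholesterol, changed by -0.0068 ± 0.16. Cyp46a1, which makes the oxysterol by which neurons dispose of cholesterol, had 19.97, 19.0 and 21.5 CPM in knockouts and 25.5, 18.9 and 23.6 CPM in controls (-0.17 ± 0.14).

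Microglia and vessel cells, which keep Slc7a5, also express Abcg1 and Abca1. Microglia markers were higher in 8 of 9, none called, with sums of 193, 150 and 171 CPM in knockouts A, B and C, against 129, 143 and 162 CPM in controls. Endothelial and mural markers were higher in 7 of 8, none called, with sums of 245, 225 and 195 CPM in knockouts and 184, 216 and 176 CPM in controls. Both sums overlapped between the genotypes. Their part in the levels of Abcg1 and Abca1 was not tested.

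**Figure D5:**
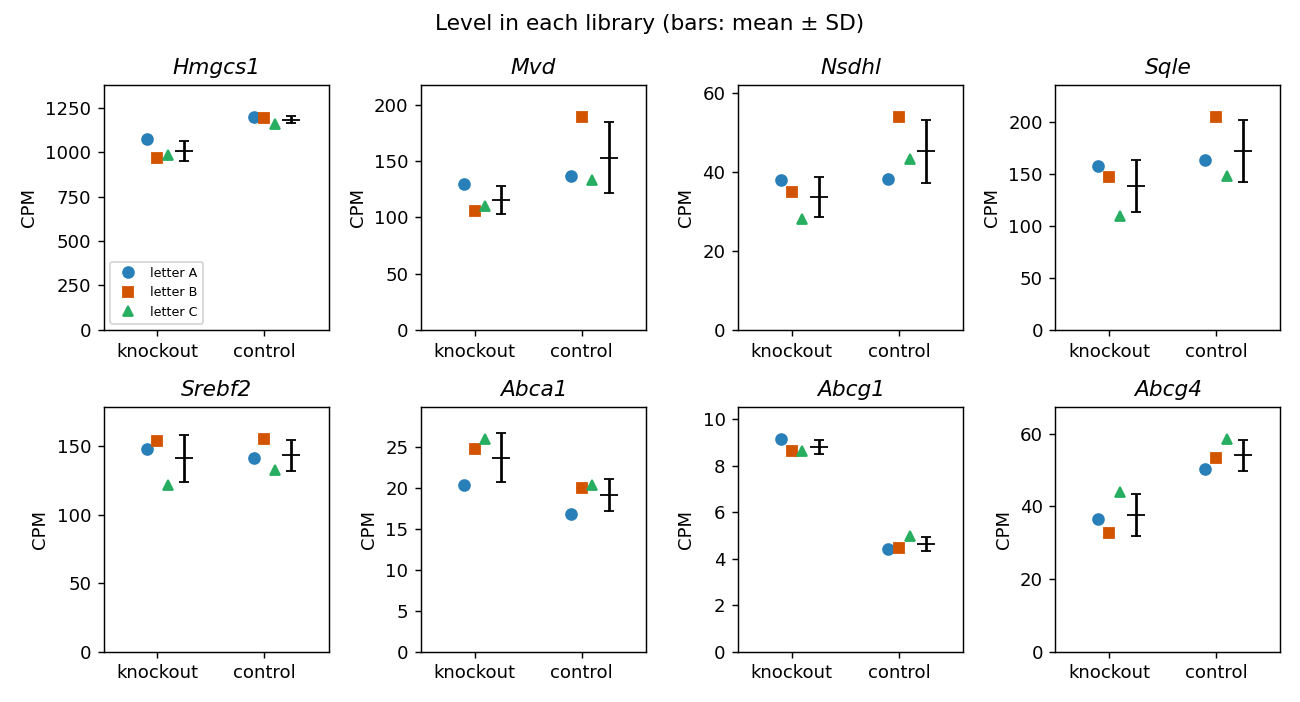
CPM in each library for 8 genes, knockouts left of controls, with mean ± SD as bars; colours and shapes mark the letters. Abcg1 and Abca1 are higher in each knockout than in each control, Abcg4, Hmgcs1, Mvd and Nsdhl are lower in each, and Sqle and Srebf2 overlap.

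Of 46 further genes listed around the sterol pathway, 42 were tested. The list reached beyond sterol metabolism, to genes such as Coq2, Pdss1, Pdss2, Dhdds, Nus1 and Lamp1. Of the 42 tested genes, 23 had values below 0 and 19 above, with a median of -0.013. None passed without the block. With the block the transporter Abcg4, a close relative of Abcg1 that is found in neurons, fell (adjusted p = 0.00615). It had 36.4, 32.6 and 43.8 CPM in knockouts A, B and C, against 50.3, 53.3 and 58.7 CPM in controls, without overlap (log2 change -0.52 ± 0.13, adjusted p = 0.276 without the block, 0.104 with DESeq2). The next smallest p in the lower direction belonged to Acat1, the mitochondrial thiolase (-0.24 ± 0.11), and to Nceh1, a cholesteryl ester hydrolase (-0.36 ± 0.16). In the higher direction they belonged to the lipid transfer protein Pltp (0.51 ± 0.24), to the ubiquitin ligase Rnf139 (0.13 ± 0.13) and to Osbpl8 (0.099 ± 0.10). Pltp had 6.17, 8.35 and 6.13 CPM in knockouts and 3.72, 5.83 and 5.09 CPM in controls, without overlap. It was the 1 gene of the 42 that did not overlap in the higher direction, against 5.89% of all genes. In the lower direction 3 of the 42 did not overlap, against 6.28% of all genes.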

How the data were processed

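The authors deposited raw counts of reads per gene for 6 libraries, with 1 unstranded and 2 stranded columns. The submitters' processing notes name STAR 2.5.4 and, as builds, GRCm38 as well as mm10; the annotation release is not given in the sources used here. The libraries came from a SENSE mRNA kit per the labels' protocols. Of the stranded columns, the one with 17.5 to 19.2 times the reads of the other was analysed, and the 4 summary lines were left out of library sizes. Multi-mapping reads were 0 in every table, so genes with near-identical copies are undercounted. Symbols and exon lengths came from GENCODE M21, which held 52403 of the identifiers.

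Genotypes were compared in R 4.3.3 with edgeR 4.0.16: filterByExpr, TMM (factors 0.979 to 1.04), robust quasi-likelihood F-test, two-sided, Benjamini-Hochberg adjustment over 14913 genes, threshold 0.05. The SE is the log2 change divided by the square root of F. Alternatives were DESeq2 1.42.0, other size factors, no filter, unstranded counts, 1 library left out, and the letter as a block. The letters are given no meaning in the labels. Deviations from group means correlated across genes at 0.427, 0.351 and 0.213 within letters A, B and C, and at most -0.0305 between letters. Such deviations cancel within a genotype, so positive values within letters push those between letters to be negative and add no separate evidence. On the values within letters a letter was treated as a pair, a choice made from the same counts that the blocked fit tests. The series' design calls the samples biological replicates, and none of the 6 pairs of libraries within a genotype agreed within sampling noise. The fits were also run on simulated counts that held no difference between letters, so that run does not bear on the blocked calls.

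Promoter sequences are RefSeq's on GRCm38.p6. All 33 members were named. Of the 46 further genes, values were given for those called in either fit and those with the 3 smallest p in each direction. Members and lists were chosen with earlier results of these data known, so no p is given for a list.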

Additional observations from a re-analysis of the deposited data

How the results depend on the processing

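The median change of the 18 enzymes kept its sign under all 14 alternatives, from -0.29 to -0.14. With the letter as a replicate block, 126 genes and 1 member (Abcg1) were called, against 5 and 0 without it; with no filter on low counts 71 genes and 1 member (Abcg1) were called, and with DESeq2 27 genes and no member. Leaving out libraries gave 0 to 10 called genes and no member. Removing both libraries of a letter was chosen after seeing the data. Slc7a5 passed with no filter (-1.25, adjusted p = 5.02e-11, edgeR) and with DESeq2 (-1.25, adjusted p = 3.42e-04), and its change ran from -1.67 to -0.77 over the alternatives. The sign of Lss turned with other size factors (0.00078) and with DESeq2 (0.0010), and the cause was not tested.

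When libraries were left out, log2 changes of several genes took both signs: Idi1 from -0.72 to 0.15, Fdps from -0.33 to 0.048, Lss from -0.10 to 0.050, Dhcr7 from -0.30 to 0.21, Srebf2 from -0.084 to 0.075, Scap from -0.21 to 0.085, Insig1 from -0.39 to 0.11, Mylip from -0.91 to 0.014, Npc2 from -0.33 to 0.021, Nr1h2 from -0.33 to 0.057 and Soat1 from -0.089 to 0.13. The median ran from -0.072 to 0.077 over the SREBP-2 control genes, from -0.16 to -0.0084 over the storage genes, and from -0.095 to 0.019 over all members that are not enzymes.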
